A study of Mus musculus with 12 samples.

Results

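The comparison set TCRαβ double negative T cells of mouse liver stimulated with arachidonic acid (AA) against the same cells without AA. It took 6 of the 12 libraries of the series, 3 labelled with AA and 3 labelled without AA, and covered every gene of the deposited count table. The other 6 libraries, from TCRγδ double negative cells with and without AA, shared the estimate of spread and served to test whether the AA effect differed between the cell populations. Both αβ groups came from adult C57BL/6 liver and carried no stated genetic change. Live CD45+ CD3+ NK1.1- cells that lacked CD4 and CD8 and carried TCRαβ were sorted, and 1 group was then stimulated with AA for 48 h. The AA dose, whether cells without AA were also cultured, and whether the 3 replicates of a group came from separate animals are not given in the labels, so each p-value reflects no more than the spread among these libraries, which may be technical.

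Arachidonic acid is a polyunsaturated fatty acid of membrane phospholipids. Phospholipase A2 releases it, and cyclooxygenases, lipoxygenases and epoxygenases turn it into prostaglandins, thromboxane, leukotrienes and epoxides, which act on G protein-coupled receptors. Double negative T cells carry a T cell receptor (TCR) without the CD4 or CD8 coreceptor. In conventional T cells the kinase Lck, brought to the receptor by these coreceptors, phosphorylates the CD3 chains, which then recruit Zap70. The transcription factor T-bet, encoded by Tbx21, directs type 1 differentiation and interferon-γ production.

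The αβ libraries with AA differed from the others in several measures of the whole library. They held 6036487 to 17021782 counts, against 21189619 to 30548253 without AA. Correlations of log2 CPM between replicates were 0.65 to 0.784 with AA and 0.933 to 0.95 without AA. Olfactory, vomeronasal and keratin-associated genes, which T cells are not known to use, took 6800, 1710 and 5850 CPM (each gene's counts divided by the library's sum and brought to one scale, here with no further adjustment) with AA and 916, 373 and 165 CPM without AA. LincRNA genes took 0.601% to 1.38% of counts with AA and 0.264% to 0.374% without AA, and mitochondrial genes 2.54% to 5.43% with AA and 1.09% to 2.48% without AA. The repeat-derived gene Gm10800 took 21.9% of the counts of AA replicate 3 and at most 0.713% in the other αβ libraries. The part of these differences in the results was not tested.

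**Figure D1:**
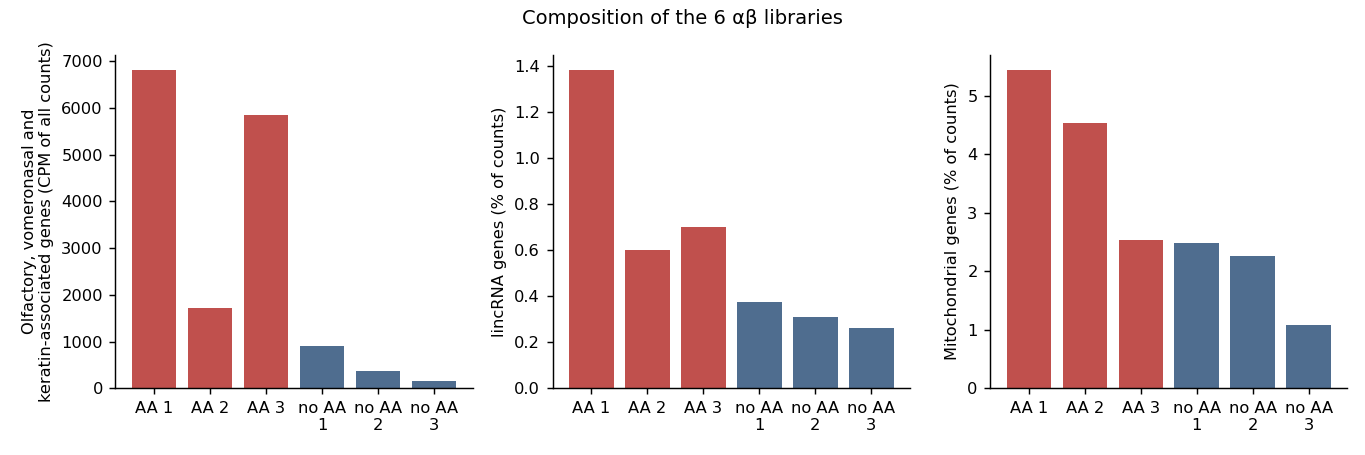
Share of 3 gene classes in each αβ library, with AA on the left and without AA on the right: the summed CPM of olfactory, vomeronasal and keratin-associated genes, the percent of counts in lincRNA genes, and the percent in mitochondrial genes. Bars are single libraries and start at 0. All 3 libraries with AA lie above all 3 without AA in each panel, in the last by the narrow margin of 2.54% against 2.48%.

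The Trdc levels of 2 libraries without AA went against their labels, and per CD3 count so did those of AA replicates 1 and 3 of the αβ cells. Trdc, which encodes the constant part of the δ chain, gave 0.358, 0.131 and 0.227 counts per count of Cd3d, Cd3e and Cd3g with AA, against 0.0178, 0.0243 and 0.354 without AA. The library labelled αβ replicate 3 without AA thus lay far from the other libraries of its group and within the range of 0.23 to 0.518 of 5 of the 6 γδ libraries. The γδ library labelled replicate 3 without AA had 0.0292. AA replicates 1 and 3 of the αβ cells also had values near those of γδ libraries, and no alternative left these 2 out together. In CPM further scaled by TMM, the trimmed mean of M-values (the unit of all levels of single genes here), Trdc was at 45.1, 4.81 and 57.7 with AA and at 3.69, 6.28 and 218 without AA, and its log2 fold change of -1.09 turned to 2.84 without αβ replicate 3 of the group without AA.

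Of 22107 genes tested, 3 passed the threshold (edgeR's quasi-likelihood test, Benjamini-Hochberg adjusted p under 0.05). All 3 fell with AA: Tbx21, Wdr89 and Lck, which is 0.0136% of the genes tested. No gene rose past the threshold, which is 0%. At an unadjusted p under 0.05, 1329 genes (6.01%) were lower with AA and 935 (4.23%) were higher, together 2264 where 1105 would be expected if no gene differed. These 2264 became 1447 without αβ replicate 2 without AA, 1467 without αβ replicate 3 without AA, and 1411 without the third libraries without AA of both populations. The count of called genes was not stable. It was 0 when αβ replicate 1 with AA was left out, 0 without any one of the 3 αβ libraries without AA, and 129 without αβ replicate 2 with AA. Of the γδ libraries, leaving out replicate 1 or 2 with AA, or replicate 1 or 2 without AA, also gave 0, and leaving out replicate 3 without AA gave 1. DESeq2 called 89 genes lower (0.475% of 18740) and 277 higher (1.48%).

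The regions just before the start sites of the 3 genes that fell are shown because these genes carry the result. The sequences are RefSeq promoters of the GRCm38.p6 build, each running from 250 bases before to 50 bases after the start and all on the minus strand of the chromosome, written 5′ to 3′. Capitals mark matches on either strand to the core of ETS factors, AGGAAGT, and to the GC box, GGGCGG. RefSeq lists 2 starts for Lck, a downstream one at chr4:129558323-129558622 and an upstream one at chr4:129573592-129573891. The Tbx21 window is chr11:97115282-97115581 and the Wdr89 window is chr12:75669488-75669787.
Lck downstream start: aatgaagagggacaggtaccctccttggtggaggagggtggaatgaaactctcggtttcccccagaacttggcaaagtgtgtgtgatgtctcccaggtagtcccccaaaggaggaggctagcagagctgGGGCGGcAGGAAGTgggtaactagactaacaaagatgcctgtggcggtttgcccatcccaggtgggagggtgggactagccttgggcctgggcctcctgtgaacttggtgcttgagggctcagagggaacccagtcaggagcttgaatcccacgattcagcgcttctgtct
Lck upstream start: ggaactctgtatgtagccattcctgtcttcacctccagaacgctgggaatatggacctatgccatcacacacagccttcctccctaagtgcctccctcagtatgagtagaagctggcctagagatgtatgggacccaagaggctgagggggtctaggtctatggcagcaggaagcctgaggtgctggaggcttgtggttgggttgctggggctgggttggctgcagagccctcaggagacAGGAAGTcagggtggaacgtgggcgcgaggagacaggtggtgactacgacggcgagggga
Tbx21: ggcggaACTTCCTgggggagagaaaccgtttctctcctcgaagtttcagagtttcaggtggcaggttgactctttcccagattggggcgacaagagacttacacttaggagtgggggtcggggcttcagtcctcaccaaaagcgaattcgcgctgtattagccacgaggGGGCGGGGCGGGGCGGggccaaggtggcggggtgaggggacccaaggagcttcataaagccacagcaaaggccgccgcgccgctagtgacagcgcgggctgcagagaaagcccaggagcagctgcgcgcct
Wdr89: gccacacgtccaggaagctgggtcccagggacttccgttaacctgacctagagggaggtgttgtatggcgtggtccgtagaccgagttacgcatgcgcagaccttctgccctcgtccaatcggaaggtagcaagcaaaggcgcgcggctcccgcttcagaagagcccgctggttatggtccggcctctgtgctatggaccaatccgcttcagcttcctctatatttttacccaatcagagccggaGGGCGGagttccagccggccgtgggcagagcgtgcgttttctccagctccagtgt
Both Lck windows and the Tbx21 window held 1 ETS core each, in Tbx21 on the opposite strand, and 9.35% of the 32851 promoters in the RefSeq table held one. The Tbx21 window held 3 overlapping GC boxes, the downstream Lck window 1 and the Wdr89 window 1, a motif found in 35.7% of promoters. The T-box core GGTGTGA, the AP-1 site TGANTCA, the CRE core TGACGTC and the TATA box TATAAA were searched on both strands as well and matched none of the 4 windows. These motifs were found in 3.98%, 7.81%, 3.21% and 13.6% of promoters. A match describes letters in this window and is not a binding site shown by these data.

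Tbx21 was at 0, 0 and 0.181 CPM with AA, against 30.7, 25.6 and 52.9 CPM without AA. In raw counts this was 1 count in the 3 libraries with AA together and 2668 in the 3 libraries without. The groups were far apart, and every library without AA held at least 509 counts. The level averaged 0.0602 ± 0.104 CPM with AA and 36.4 ± 14.5 CPM without AA (SD, n = 3 each). The ratio of the scaled sums was 1360-fold lower with AA, with an exact 95% interval of 243 to 53600 that covers counting error only. The fitted log2 fold change was -9.85 ± 1.3 (SE, adjusted p = 0.0377).

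Wdr89 encodes a protein with WD40 repeats. Its level was 0, 0.317 and 0 CPM with AA, against 32.7, 29.2 and 37.9 CPM without AA, a log2 fold change of -7.84 ± 1.07 (SE, adjusted p = 0.0377). The libraries with AA held 6 counts of Wdr89, all in replicate 2, and those without AA held 2358. Lck was at 55.6, 77.7 and 86.6 CPM with AA, against 385, 340 and 395 CPM without AA. Lck was thus well detected in all 6 libraries, with narrow groups that did not overlap. It averaged 73.3 ± 15.9 CPM with AA and 373 ± 29.2 CPM without AA (SD, n = 3 each), a log2 fold change of -2.35 ± 0.33 (SE, adjusted p = 0.0377). In bulk samples, fewer cells of a type and less RNA per cell cannot be told apart.

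Leaving out the third libraries without AA, which are replicate 3 of the αβ and of the γδ cells, moved the sizes of the 3 effects little but ended their calls. The log2 fold change was then -9.42 for Tbx21 (adjusted p = 0.17), -7.78 for Wdr89 (adjusted p = 0.248) and -2.31 for Lck (adjusted p = 0.248). Over all alternatives tried, the adjusted p ran from 1.2e-10 to 0.541 for Tbx21, from 1.08e-12 to 0.541 for Wdr89 and from 6.48e-08 to 0.541 for Lck. All 3 genes were lower with AA under each of them.

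**Figure D2:**
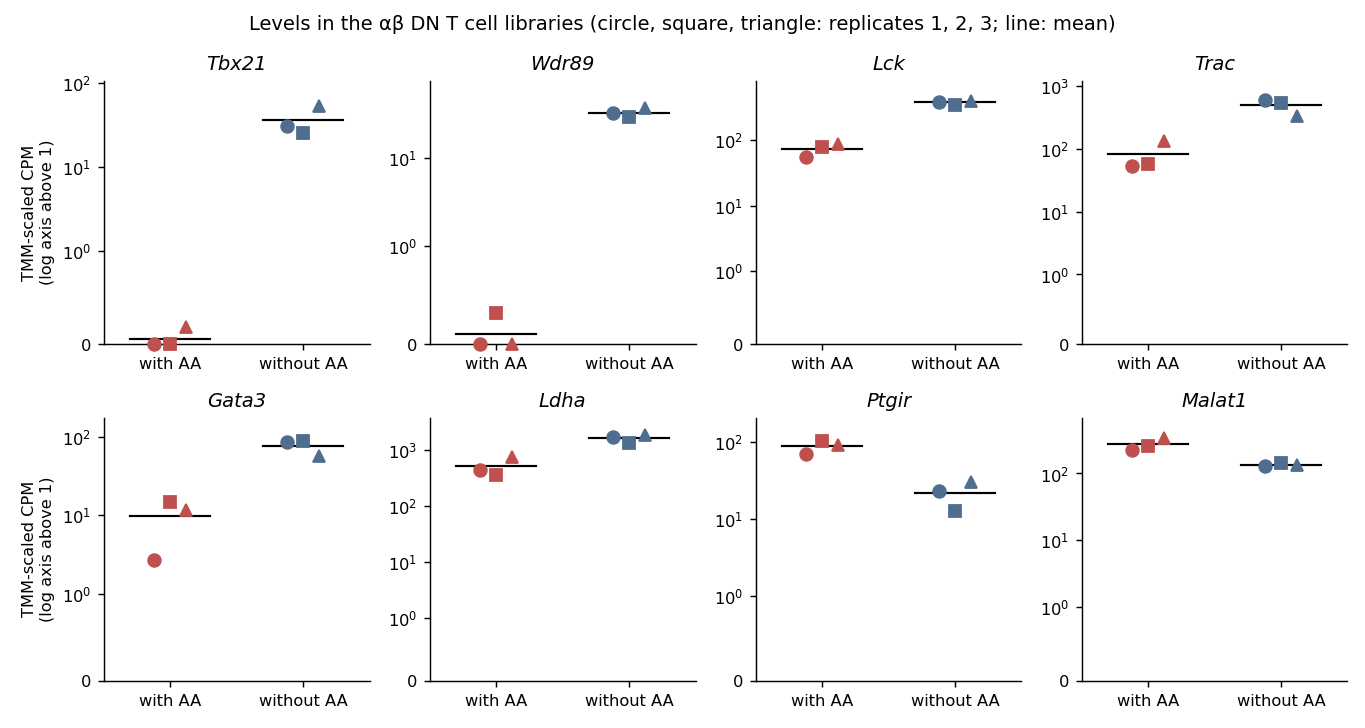
Levels of 8 genes in each αβ library, in TMM-scaled CPM on an axis that is linear below 1 and logarithmic above it, with AA left of without AA. Circles, squares and triangles are replicates 1, 2 and 3, and the line is the mean. Tbx21 and Wdr89 lie near 0 in the 3 libraries with AA and above 25 CPM in those without. Lck, Trac, Gata3 and Ldha lie lower with AA, and Ptgir and Malat1 higher, each without overlap, and of these 6 only Lck passed the test.

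Missing counts were common among well expressed genes in 2 of the 3 libraries with AA, a measure chosen after the values were seen. Of 7722 genes at 10 CPM or more in every αβ library without AA, 270 had no count in AA replicate 1, 2 in AA replicate 2 and 159 in AA replicate 3. At least 1 library with AA had no count for 401 of them (5.19%), and at least 2 had none for 30 (0.389%), among them Tbx21 and Wdr89. In the γδ cells the same measure gave 136 of 7702 genes (1.77%) with no count in at least 1 library with AA, and 134 of these lacked counts in replicate 3. Only 5 of the 7722 genes were under 1 CPM in all 3 αβ libraries with AA: Tbx21, Wdr89, Utf1, Xrcc3 and Mcat. No gene did so among the 7702 of the γδ cells. The part of these missing counts in the result was not tested.

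The genes for CD4, CD8 and NK1.1, the markers of the sort gate, stayed low in both groups. Cd4 was at 0.181 to 3.33 CPM with AA and 0.552 to 2.34 CPM without AA, and Cd8a reached 16.3 CPM with AA and 1.67 CPM without AA. Klrb1c, which encodes NK1.1, was at 1.18, 3.86 and 0 CPM with AA and at 5.81, 9.84 and 7.16 CPM without AA. The list of sort gate genes also held Zbtb16, which was not low. Its raw counts were 395, 237 and 17 with AA and 1535, 895 and 728 without AA. Of the 6 genes of this list, Klrb1c alone did not overlap between the groups, and the median log2 fold change was -0.52. Transcripts of other cell types were present in both groups. The summed share of 16 macrophage and monocyte markers was 0.636% to 1.61% with AA and 0.199%, 0.179% and 2.37% without AA, the highest in replicate 3. The 14 B cell and plasma cell markers summed to 0.926% to 2.45% with AA and 0.341% to 1.88% without AA.

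The summed shares of these and of the other marker lists overlapped between the groups, except those of red cells and platelets, at 0.0085% to 0.0105% with AA and 0.0059% to 0.00828% without AA, and these overlapped too in TMM-scaled CPM, at 77.6 to 94.2 with AA and 58.8 to 89.7 without AA. Neutrophil markers summed to 0.0704% to 0.177% with AA and 0.0251% to 0.365% without AA. Dendritic cell markers summed to 0.568% to 1.58% with AA and 0.619% to 2.05% without AA, and markers of basophils and mast cells to 0.0682% to 0.756% with AA and 0.0445% to 0.379% without AA. Markers of NK cells and innate lymphoid cells, hepatocytes, and endothelial and mesenchymal cells stayed under 0.1% of counts in every αβ library. The Kupffer cell gene Clec4f was at or near 0 in all 6 libraries. Of 11 hepatocyte markers tested, 7 had a positive and 4 a negative log2 fold change, 2 higher and 1 lower without overlap. Albumin, the main hepatocyte transcript, was at 11.5, 2.06 and 3.43 CPM with AA and at 1.01, 0.201 and 0.0709 CPM without AA, and Apoa2, an apolipoprotein, at 0, 0.158 and 0 CPM with AA and at 0.507, 2.16 and 1.95 CPM without AA. None of the marker genes passed the test, and their part in the results was not tested.

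Direction varied with expression level across all genes, though not steadily from class to class. Without overlap between the groups, 2411 genes (10.9%) were lower and 1828 (8.27%) were higher with AA. Among 2019 genes at a mean of 100 CPM or more over the 6 αβ libraries, 747 (37%) were lower without overlap and 18 (0.892%) higher, and 84.9% had a negative log2 fold change, with a median of -0.50. Among 7081 genes at 10 to 100 CPM the shares were 15.5% lower and 4.46% higher, with a median of -0.29. Among 8978 genes at 1 to 10 CPM they were 4.32% lower and 14.7% higher, with a median of 1.67. Among the 4029 genes under 1 CPM they were 4.42% and 4.32%, with a median of 0.43. The median over all genes was 0.12, and it was 0.50 with DESeq2's size factors. A list of abundant genes is therefore read against these classes below, and the 10.9% and 8.27% are the shares for all genes.

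**Figure D3:**
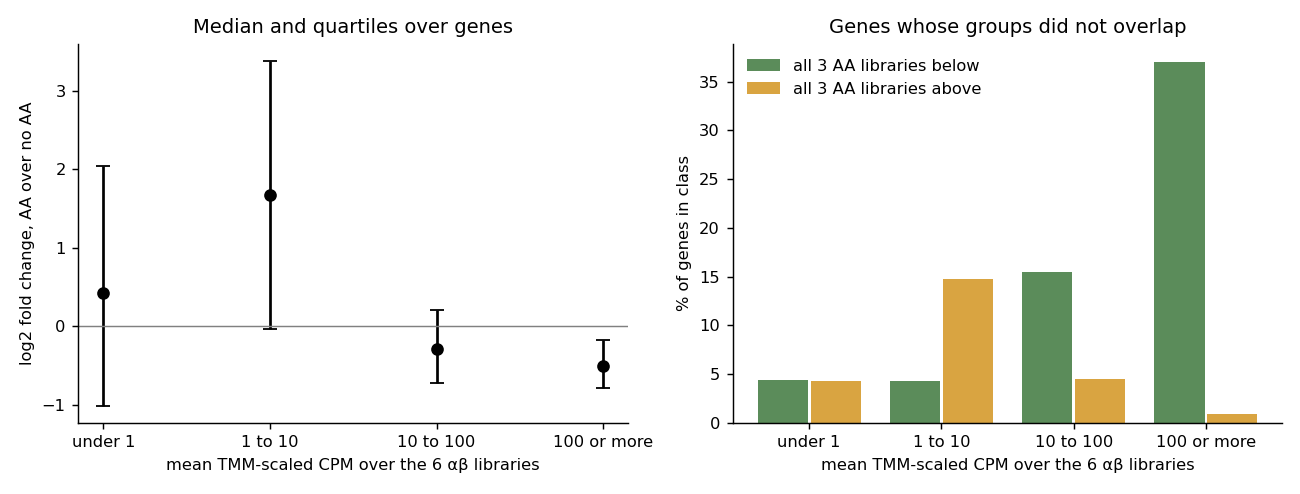
All 22107 genes tested, split by mean CPM over the 6 αβ libraries. The left panel gives the median log2 fold change (AA over no AA) with its quartiles over genes, and the right panel the percent of genes in a class whose 3 libraries with AA all lay below or all above the 3 without. The share lying below reaches 37% in the most abundant class, while the share lying above peaks at 14.7% between 1 and 10 CPM.

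The constant regions of the α and β chains of the TCR lay lower with AA without overlap, while that of the δ chain, Trdc, overlapped as given above. Trac, the α chain constant region, was at 54.3, 57.5 and 133 CPM with AA, against 604, 548 and 331 CPM without AA, a log2 fold change of -2.60 ± 0.49 (SE, adjusted p = 0.146). Trbc1 was at 78.9, 41.5 and 155 CPM with AA and at 262, 279 and 421 CPM without AA, and Trbc2 at 180, 88.6 and 331 CPM with AA and at 656, 632 and 912 CPM without AA. All 3 αβ chain genes were separated between the groups but none passed the threshold. The libraries labelled γδ held these transcripts too. Trac had 9392, 16283 and 7144 counts there with AA and 2313, 10185 and 9973 without AA, and Trbc2 had 12149 to 27595. In the αβ libraries Trac had 599, 1088 and 736 counts with AA and 13089, 10910 and 9351 without AA. The source of these transcripts in the γδ libraries was not tested. The constant regions of the γ chain could not be matched by symbol and are not given. Trbc1 and Trbc2 are near-identical, and their split depends on how the reads were counted.

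Lck stood in a list of 25 CD3 chains and proximal signalling genes, of which 13 were lower without overlap, 0 higher, and 1, Lck itself, passed the test. The median log2 fold change was -1.41, and -1.09 without the third libraries without AA. Zap70, the kinase that binds phosphorylated CD3 chains, was at 110, 29.9 and 119 CPM with AA and at 362, 283 and 345 CPM without AA. Lcp2, the adaptor SLP-76, was at 221, 89.7 and 89.3 CPM with AA, against 448, 335 and 387 CPM without AA. Both were separated, with log2 fold changes of -1.94 (adjusted p = 0.179) and -1.55 (adjusted p = 0.264). Lat, the membrane adaptor, was at 91.6, 23.8 and 41.9 CPM with AA and at 125, 136 and 191 CPM without AA. The CD3 chains themselves overlapped: Cd3e was at 18.8, 12 and 71.9 CPM with AA and at 59.6, 58.5 and 153 CPM without AA. The costimulatory receptor Cd28 was at 5.07, 1.11 and 1.99 CPM with AA and at 8.86, 9.04 and 19.9 CPM without AA, also without overlap.

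Expressed per CD3 transcript, the 3 called genes parted ways. Tbx21 gave 0, 0 and 0.0711 counts per 100 counts of Cd3d, Cd3e and Cd3g with AA and 14.8, 9.89 and 8.59 without AA. Wdr89 gave 0, 0.866 and 0 with AA and 15.7, 11.3 and 6.14 without AA. Both were still separated. Lck gave 44.1, 212 and 34.1 counts per 100 CD3 counts with AA and 185, 132 and 64.1 without AA, and Trac gave 43.1, 157 and 52.3 with AA and 291, 212 and 53.8 without AA, so on this scale both overlapped. AA replicate 2, whose CD3 transcripts were the lowest, set the overlap of Lck. The overlap of Trac lay between that library and replicate 3 without AA. Cd3e, given above, was lower in AA replicates 1 and 2 than in every library without AA, but not in AA replicate 3. The scale raises genes in libraries that hold less CD3 transcript. The abundant Actb, for β-actin, gave 1800, 7110 and 1050 with AA and 1580, 1390 and 709 without AA. These ratios are given as values, with no test; the scale was chosen after the data were seen.

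**Figure D4:**
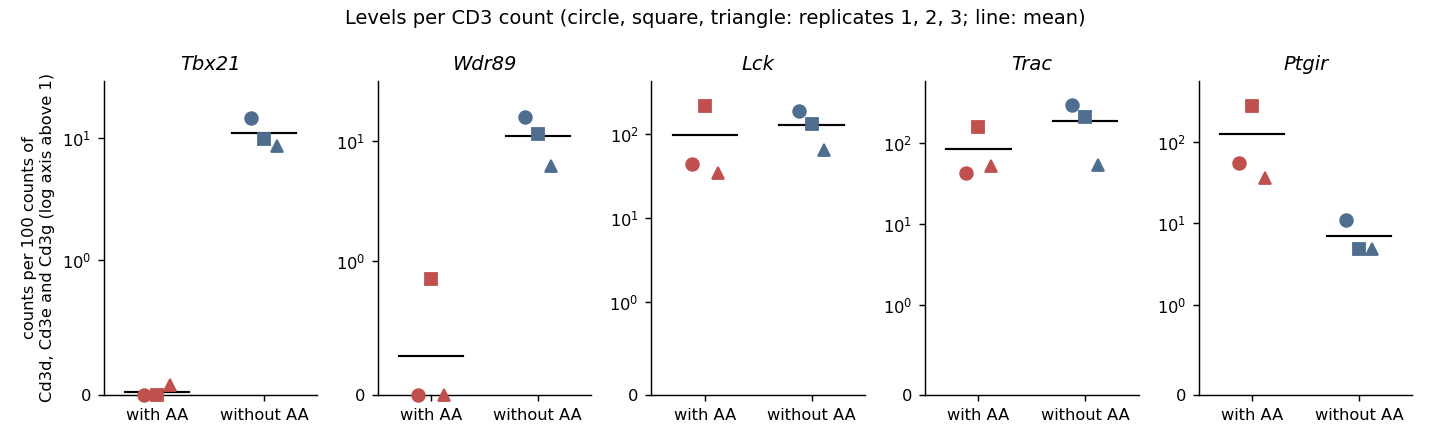
Counts of 5 genes per 100 counts of Cd3d, Cd3e and Cd3g in each αβ library, on an axis linear below 1 and logarithmic above it, with AA left of without AA. Symbols are replicates 1 (circle), 2 (square) and 3 (triangle), and the line is the mean. Tbx21 and Wdr89 stay below the group without AA and Ptgir above it. Lck overlaps because of the square with AA, and Trac because of that square and the triangle without AA.

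Tbx21 was the 1 gene of 18 in the type 1 list to pass the test. Of the 18, Tbx21 among them, 15 had a negative and 3 a positive log2 fold change, and 6 were lower without overlap and 0 higher, with a median log2 fold change of -0.94 that was -0.46 without the third libraries without AA. Stat4, which carries the interleukin-12 signal, was at 52.4, 44.6 and 37.1 CPM with AA, against 111, 92.2 and 112 CPM without AA (log2 fold change -1.23, adjusted p = 0.339). Ifng, encoding interferon-γ, was at 0, 0.845 and 0 CPM with AA and at 6.23, 5.12 and 3.72 CPM without AA, all low values. Eomes, the T-box factor related to T-bet, was at 1.54, 0.792 and 0.723 CPM with AA and at 4.94, 2.41 and 18.6 CPM without AA. Il18rap, an interleukin-18 receptor subunit, was separated too, at 8.06, 61.7 and 26.4 CPM with AA and 72.8, 103 and 95.1 CPM without AA. Cxcr3, a chemokine receptor of type 1 cells, and Ccl5 overlapped between the groups.

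Of 18 genes for cytotoxic granules and killer receptors, 8 were lower without overlap and 0 higher. Their median log2 fold change was -1.28, and -0.75 without the third libraries without AA, in which several were highest. Ctsw, the protease cathepsin W of cytotoxic cells, was at 72.6, 18.8 and 49 CPM with AA, against 152, 170 and 383 CPM without AA (log2 fold change -2.33, adjusted p = 0.264). Prf1, perforin, was at 0, 6.07 and 0.904 CPM with AA and at 13, 14.1 and 36.1 CPM without AA, and Fasl at 0, 1.85 and 6.33 CPM with AA and at 8.35, 14.8 and 23.8 CPM without AA. These were separated with wide spread. Gzmb, granzyme B, overlapped, at 20.4, 18.3 and 0 CPM with AA and 39.7, 16.6 and 39.1 CPM without AA. The killer receptors Klrk1 (NKG2D), Klrd1 (CD94) and Klrc1 (NKG2A) were each separated, with log2 fold changes of -1.80, -2.33 and -3.18.

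Gata3, the transcription factor of type 2 cells that T cell development also needs, was at 2.72, 14.8 and 11.6 CPM with AA, against 87.1, 87.9 and 57.5 CPM without AA. The groups were separated by a wide gap, with a log2 fold change of -3.0 ± 0.57 (SE, adjusted p = 0.146; DESeq2 adjusted p = 0.000269). It was the 1 gene of 9 in the type 2 list without overlap, a share near the 10.9% of all genes tested that were lower. Il4 and Il5 overlapped at low levels, and Ccr4 and Ccr8 overlapped because replicate 3 without AA was low. Of 16 type 17 genes, 1 was lower without overlap, Stat3, and the median was -0.65. Il17a was at 95.6, 40.5 and 235 CPM with AA and at 778, 242 and 211 CPM without AA, overlapping, with a log2 fold change of -1.73 (adjusted p = 0.438). That fold change was -0.88 without αβ replicate 1 without AA and -2.44 without αβ replicate 3 with AA.

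Among 18 inhibitory receptors and suppressive molecules, 6 were lower and 2 higher without overlap, where 10.9% and 8.27% of all genes tested were. Pdcd1, encoding PD-1, was at 48, 49.2 and 139 CPM with AA and at 150, 240 and 219 CPM without AA. Lag3 was at 28.4, 10.8 and 13.6 CPM with AA and at 53.6, 62.5 and 82.2 CPM without AA. Nt5e, the ectonucleotidase CD73, was at 21.6, 11.6 and 3.8 CPM with AA and at 48.3, 63.4 and 47.6 CPM without AA. The 2 genes on the other side were Il10 and Entpd1. Il10, an anti-inflammatory cytokine, was at 38, 31.8 and 55.7 CPM with AA, against 15.8, 19.5 and 8.22 CPM without AA (log2 fold change 1.53, adjusted p = 0.667). Entpd1, the ectonucleotidase CD39, was at 92.5, 41.1 and 23.9 CPM with AA, against 19.1, 14.5 and 21 CPM without AA. None passed the threshold, and the list's median of -1.05 was -0.63 without the third libraries without AA.

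All 17 genes of the common γ chain cytokine receptors and STAT5 pathway had a negative log2 fold change, 9 without overlap, with a median of -0.95 (-0.62 without the third libraries without AA). Il2rg, the common γ chain, was at 130, 128 and 138 CPM with AA, against 214, 286 and 282 CPM without AA, the tightest of these groups. Il2rb was at 222, 48.8 and 150 CPM with AA and at 395, 331 and 501 CPM without AA. Cish, a STAT5 target that limits cytokine signalling, was at 7.88, 14.1 and 33.3 CPM with AA and at 65, 44.5 and 58.1 CPM without AA. None of the 17 passed the threshold. Of 24 NF-κB, NR4A, EGR and activation genes, 9 were lower without overlap and 1, Fos, was higher. Fos was at 755, 395 and 565 CPM with AA, against 305, 328 and 149 CPM without AA, and Myc at 138, 92.2 and 148 CPM with AA, against 305, 247 and 402 CPM without AA.

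Of 16 homing and residency receptors, 2 were lower without overlap: Itgal, the integrin LFA-1 α chain, and Itgae, the integrin CD103. This count is near the 10.9% of all genes tested that were lower without overlap. Itgal was at 147, 187 and 155 CPM with AA and at 414, 358 and 452 CPM without AA (log2 fold change -1.32, adjusted p = 0.156). The median of -0.34 turned to 0.17 with DESeq2's size factors. Cxcr6, a receptor of liver-resident lymphocytes, overlapped, at 72.6, 34.9 and 165 CPM with AA and 136, 171 and 225 CPM without AA.

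Most survival and death genes overlapped between the groups, and the separated ones are read against the 10.9% of all genes lower without overlap. Bcl2, an inhibitor of mitochondrial apoptosis, overlapped at 17.1, 41 and 66.7 CPM with AA and 72.7, 52.9 and 88.1 CPM without AA. Its relative Bcl2l1 was at 125, 94.7 and 81.5 CPM with AA, against 261, 209 and 252 CPM without AA. Bcl2l1 and Cflar were the 2 of 10 inhibitors lower without overlap. Of 21 apoptosis effectors, 4 were lower without overlap, Bax, Bak1, Bik and the necroptosis kinase Ripk3, and the median of -0.33 turned to 0.13 with DESeq2's size factors. Ripk3 was at 53.3, 81.3 and 68.1 CPM with AA and at 203, 230 and 154 CPM without AA. Of 12 genes of p53 and its targets, 5 were lower without overlap, among them Trp53 itself at 163, 200 and 179 CPM with AA and 358, 348 and 409 CPM without AA, and Ccng1 at 137, 158 and 102 CPM with AA and 369, 355 and 256 CPM without AA. None of these genes passed the threshold.

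Genes that make and sense AA products were mostly low and scattered. Of 25 genes for AA release, activation and oxidation, 3 were lower without overlap and 0 higher. The count of lower genes is near the 10.9% of all genes tested. The lower ones were Acsl5, which couples long fatty acids to coenzyme A, at 86.3, 71.8 and 65.6 CPM with AA and 159, 139 and 168 CPM without AA, Lpcat3, which puts arachidonate into phospholipids, and Ptges3. The cyclooxygenase Ptgs1 was at 21.8, 6.13 and 15.9 CPM with AA and at 0.323, 0.803 and 12.8 CPM without AA, and Ptgs2 at 49.1, 8.08 and 0 CPM with AA and at 14.2, 1.86 and 8.47 CPM without AA. Both overlapped. The median log2 fold change over the list was 0.53, while the per-library medians relative to the mean without AA were 0.54, -0.13 and -0.46 with AA, so the list had no one direction.

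Ptgir, the receptor of prostacyclin, a cyclooxygenase product of AA, was the 1 prostanoid or leukotriene receptor of 11 that was higher without overlap. It was at 68.9, 103 and 90.9 CPM with AA, against 22.9, 12.7 and 29.8 CPM without AA, and averaged 87.5 ± 17.1 CPM with AA and 21.8 ± 8.63 CPM without AA (SD, n = 3 each). All 3 libraries with AA lay above every library without. The log2 fold change was 2.01 ± 0.48 (SE, adjusted p = 0.264; DESeq2 adjusted p = 2.97e-05). Per 100 CD3 counts it was at 54.7, 281 and 35.8 with AA and 11, 4.89 and 4.84 without AA. Ptger4, the prostaglandin E2 receptor EP4, Gpr132 and the thromboxane receptor Tbxa2r were lower without overlap. Among all genes tested, 8.27% were higher and 10.9% lower without overlap. Ptger4 was at 26.2, 34.5 and 25.3 CPM with AA and at 58.6, 39.5 and 49.6 CPM without AA. The receptor list's median of -0.25 turned to 0.28 with DESeq2's size factors.

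Of 19 genes of PPARs, their targets and fatty acid oxidation, 5 were lower and 1 higher without overlap, and the median of -0.08 turned to 0.33 with DESeq2's size factors. The higher one was Cd36, a fatty acid translocase, at 132, 112 and 60 CPM with AA, against 17.2, 23.6 and 38.6 CPM without AA (log2 fold change 1.94, adjusted p = 0.416). Angptl4, which inhibits lipoprotein lipase and is induced by PPARs, was at 0.0906, 4.17 and 0.181 CPM with AA and at 18.1, 21.7 and 21.9 CPM without AA. The 2 fatty acid responsive genes thus lay on opposite sides. All 19 sterol synthesis genes had a negative log2 fold change, 11 without overlap, with a median of -0.94. Sqle, squalene epoxidase, was at 106, 89.7 and 94.3 CPM with AA and at 196, 177 and 205 CPM without AA. Of 12 fatty acid synthesis and desaturation genes, 5 were lower without overlap, among them Fasn at 136, 58.7 and 72.5 CPM with AA and 212, 179 and 176 CPM without AA. No gene of these 3 lists passed the threshold.

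Of 18 ferroptosis and antioxidant genes, Nqo1 and Gclc, both NRF2 targets, were higher without overlap, and Tfrc and Slc3a2 lower. These counts are near the 8.27% and 10.9% of all genes tested. Nqo1 was at 92.6, 86.2 and 60 CPM with AA, against 16.7, 5.02 and 54.7 CPM without AA. Hmox1, heme oxygenase 1, was at 1310, 751 and 531 CPM with AA and at 106, 50 and 908 CPM without AA, so replicate 3 without AA lay among the AA libraries. In that library macrophage markers also summed to the 2.37% given above, against 0.199% and 0.179% in replicates 1 and 2 without AA. The list's median of 0.26 was 0.82 without the third libraries without AA.

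No cell cycle gene passed the test. Of 28 DNA replication genes, 18 were lower without overlap and 0 higher, with a median of -0.92 that was -0.52 with DESeq2's size factors. The helicase subunit Mcm6 was at 238, 237 and 271 CPM with AA, against 652, 559 and 471 CPM without AA (adjusted p = 0.278). Mcm7 was at 148, 114 and 128 CPM with AA and at 283, 298 and 292 CPM without AA (adjusted p = 0.269). Of 24 mitosis genes, 9 were lower without overlap, such as the checkpoint kinase Bub1b at 20.7, 33.2 and 13.6 CPM with AA and 66.8, 105 and 65.4 CPM without AA. Of the 24, 6 averaged 100 CPM or more, where 37% of all genes lay lower without overlap, and 3 of the 6 did so. Among all genes at 10 to 100 CPM that share was 15.5%. A positive log2 fold change was found in 4 of the 24, and the median of -0.59 was -0.19 with DESeq2's size factors. In γδ cells the medians of these lists were -1.0 and -1.06, and the comparisons in the 2 populations do not share libraries. The G1 cyclin Ccnd2 was at 163, 164 and 138 CPM with AA and at 503, 442 and 565 CPM without AA (log2 fold change -1.70, adjusted p = 0.146).

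Of 21 glycolysis and hypoxia genes, 10 were lower without overlap and 0 higher. Of these 21, 12 averaged 100 CPM or more, where 37% of all genes lay lower without overlap, and 8 of the 12 did so. Ldha, lactate dehydrogenase A, was at 429, 356 and 747 CPM with AA, against 1660, 1330 and 1840 CPM without AA (log2 fold change -1.66, adjusted p = 0.146). It was called without αβ replicate 2 or replicate 3 with AA, with robust estimation, with no filter, with voom and with DESeq2, and not under the other alternatives. Of 17 genes of ATF4, serine and one-carbon metabolism, 9 were lower without overlap, among them the serine hydroxymethyltransferase Shmt2 at 146, 255 and 196 CPM with AA and 563, 491 and 586 CPM without AA. Of 20 nuclear respiratory chain genes, 7 were lower and 1, Cox5a, was higher without overlap. Of 30 cytosolic ribosomal protein genes, 6 were lower, all among the 18 that averaged 100 CPM or more, a share near the 37% of that class. Of 17 heat shock and chaperone genes 10 were lower, such as Hspd1 at 443, 413 and 546 CPM with AA and 1380, 1100 and 899 CPM without AA. None of these genes passed the threshold.

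Mitochondrially encoded genes went the other way. All 12 tested had a positive log2 fold change, with a median of 0.46, and 6 were higher without overlap. mt-Nd5, a complex I subunit, was at 1240, 933 and 674 CPM with AA, against 556, 484 and 318 CPM without AA (log2 fold change 1.07, adjusted p = 0.33; DESeq2 adjusted p = 0.00511). The ribosomal RNA mt-Rnr1 was at 1220, 1710 and 579 CPM with AA and at 420, 327 and 155 CPM without AA. The nuclear lncRNA Malat1 was also higher without overlap, at 228, 256 and 343 CPM with AA and 129, 142 and 135 CPM without AA (log2 fold change 1.02, adjusted p = 0.419). It was the 1 gene of 4 among nuclear and non-polyadenylated RNAs that was separated.

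Interferon stimulated genes had a median log2 fold change of -1.24, and -0.78 without the third libraries without AA, which held the highest values of many. Of 28 genes, 10 were lower without overlap and none passed. Bst2, tetherin, was at 28.4, 35.8 and 57.8 CPM with AA and at 85.1, 73.4 and 144 CPM without AA. Oas2 was at 0, 0 and 0.904 CPM with AA and at 6.09, 5.27 and 15.9 CPM without AA. Others overlapped, such as Isg15, which was under 2 CPM throughout, and Mx1 at 58.2, 1.69 and 15.5 CPM with AA and 7.15, 4.02 and 18.4 CPM without AA. The 5 genes that mark sex had a median of -0.01, with 1 lower without overlap.

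**Figure D5:**
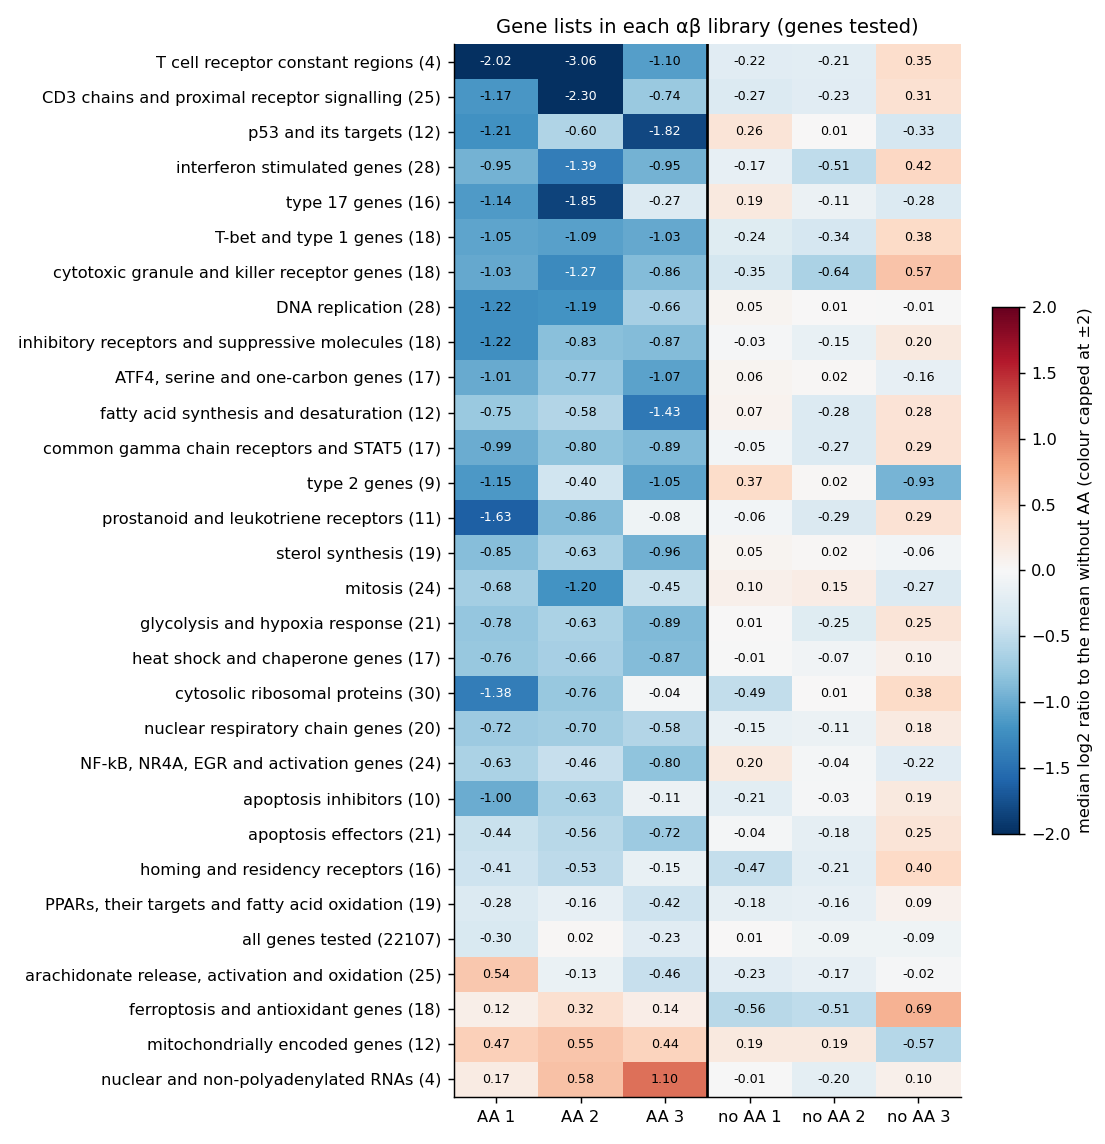
Median log2 ratio of each pathway list in each αβ library, relative to the mean of the 3 libraries without AA, with AA in the left 3 columns and without AA in the right 3. The number of genes tested is in brackets, colour is capped at 2 in either direction, and rows run by the mean with AA. TCR constant regions stand at -2.02, -3.06 and -1.10 with AA at the top, all genes tested at -0.30, 0.02 and -0.23, and mitochondrially encoded genes at 0.47, 0.55 and 0.44 near the bottom.

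Over the 29 pathway lists, 25 had a median below 0 and 4 above it. The sign changed in 4 lists with DESeq2's size factors and in 2 with library size alone. The proximal signalling, TCR constant region and DNA replication medians of -1.41, -1.84 and -0.92 lay below the -0.50 of genes at 100 CPM or more and the -0.29 of genes at 10 to 100 CPM, as did many others. Lists with at least 8 members at 100 CPM or more were also set against the 37% of that class lower without overlap. Of such members, those lower were 8 of 10 for proximal signalling, 6 of 9 for the common γ chain, 8 of 9 for DNA replication and 8 of 12 for glycolysis. They were 7 of 8 for ATF4, 6 of 10 for the nuclear respiratory chain, 10 of 12 for heat shock and 6 of 18 for ribosomal proteins. The count was 4 of 16 for NF-κB, 2 of 10 for ferroptosis and antioxidant genes, 1 of 8 for homing and 0 of 9 for mitochondrially encoded genes. Since members were chosen with results known, these medians and counts are descriptions.

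Other genes with the smallest p among those lower with AA, each with an adjusted p of 0.146, are given next. Hat1, a histone acetyltransferase, was at 67.2, 90.4 and 78.8 CPM with AA, against 206, 188 and 224 CPM without AA. Sh2d2a, the T cell specific adaptor TSAd that binds Lck, was at 115, 149 and 130 CPM with AA, against 429, 332 and 492 CPM without AA. Dok2, an adaptor that dampens receptor signalling, was at 31.7, 21 and 29.3 CPM with AA and at 87.4, 71.1 and 139 CPM without AA. In each of these the groups were separated and every library held the transcript. F2r, the thrombin receptor, Cd82, a tetraspanin, Clns1a, Dpysl2 and Glipr2 were also detected in all libraries and separated, with log2 fold changes of -1.84, -1.46, -1.24, -1.31 and -1.99. Other genes of small p or large fold change were near absent with AA. Apol7e was at 0.0906, 0.792 and 1.08 CPM with AA and at 13.4, 12.7 and 16.6 CPM without AA (adjusted p = 0.146). Tnfsf4, encoding the costimulatory ligand OX40L, was at 0, 7.08 and 0 CPM with AA and at 81, 80.4 and 66.9 CPM without AA. Xrcc3, which acts in homologous recombination, was at 0, 0.0528 and 0.542 CPM with AA and at 20.1, 14.2 and 13.2 CPM without AA. Utf1 and Mcat had log2 fold changes of -6.52 and -5.47 and at most 0.723 CPM with AA, and Mfsd2a and Ephb6 of -4.97 and -5.82.

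Of the 1828 genes higher with AA without overlap, 1284 (70.2%) averaged under 1 CPM without AA, and 160 (8.75%) averaged 10 CPM or more. The giant muscle protein titin, Ttn, was at 156, 83.7 and 63.4 CPM with AA, against 17.5, 9.14 and 7.02 CPM without AA (log2 fold change 3.17, adjusted p = 0.179; DESeq2 adjusted p = 3.63e-05). Ghr, the growth hormone receptor, was at 39.8, 2.8 and 17.9 CPM with AA and at 0.185, 0.402 and 0.0354 CPM without AA. Frmd4b was at 53.6, 19.3 and 53.1 CPM with AA and at 2.17, 1.36 and 4.01 CPM without AA. Long or tissue-restricted genes such as Unc13a and Stxbp5l of synapses, Myo15 of the inner ear and Hmcn1 followed, with log2 fold changes of 4.81, 7.52, 5.19 and 4.08, and so did the lincRNA AY512915 with 8.30.

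With no count in any αβ library without AA, Spocd1 was at least 164-fold higher, the serotonin receptor Htr2a at least 330-fold, the olfactory receptor Olfr370 at least 306-fold, Pcdhb13 at least 250-fold, the keratin-associated Krtap9-5 at least 236-fold, Ubtfl1 at least 258-fold, Agmat at least 155-fold and the pseudogene CT009755.2 at least 459-fold, with a floor of 3 counts over the group. Lrrc75b, with 851 counts with AA and 1 without, was 1670-fold higher with an exact interval of 299 to 66200. This αβ contrast did not extend to γδ cells, where every replicate lacking AA expressed Lrrc75b, at 128, 38 and 33 counts. The stimulated γδ replicates held 0, 11 and 395. The γδ libraries without AA held 79 counts of Agmat, all in replicate 3, 39 of Ubtfl1, all in replicate 1, and at most 4 of each of the other genes with no αβ count there. Replicate 1 with AA held most counts of Htr2a, Olfr370, Krtap9-5, Pcdhb13, Ubtfl1, CT009755.2 and Lrrc75b. Of 1407 olfactory receptor genes in the table, 460 passed the filter, and of these 95 were higher and 3 lower without overlap. Of 331 vomeronasal receptor genes, 167 passed it, and 39 were higher and 1 lower. Over all genes tested 8.27% were higher and 10.9% lower, and at 1 to 10 CPM 14.7% and 4.32%. A near-silent gene passes the filter only through libraries where it is high, so counts for such classes are not independent of the filter. Among 1260 lincRNA genes 162 were higher and 34 lower, with a median log2 fold change of 1.97, against -0.05 over 16080 protein-coding genes. The higher shares of these classes in the libraries with AA stand beside every gene in this paragraph and their part in it was not tested.

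The AA effect in αβ cells was then set against that in γδ cells. No gene had a difference of effects past the threshold with edgeR, while 2117 genes (9.58%) had an unadjusted p under 0.05 and DESeq2 called 321 (1.68% of 19133). The 2117 became 1411 without γδ replicate 1 without AA and 1187 without both replicate 3 libraries without AA, whose Trdc went against their labels. In γδ cells alone, 2 genes (0.00905%) passed. The groups were separated in both populations, in opposite directions, for 175 of the 22107 genes (0.792%). Tbx21 was there at 20.9, 26.9 and 21 CPM with AA and at 17.2, 43 and 5.9 CPM without AA, overlapping. The αβ effect minus the γδ effect on Tbx21 was -9.91 ± 1.5 on the log2 scale (SE, adjusted p = 0.211). For Wdr89 the difference was -7.21 ± 1.25 (adjusted p = 0.211), and for Lck, at 259, 327 and 170 CPM with AA and 237, 461 and 326 CPM without AA in γδ cells, it was -1.91 ± 0.45 (adjusted p = 0.442). Trac and Gata3 had differences of -3.23 and -3.55 (adjusted p = 0.386 and 0.398), and Ptgir of 1.92 (adjusted p = 0.442). Without a passed test, none of these effects is shown to be particular to αβ cells.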

How the data were processed

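The authors deposited a table of raw counts per gene for 12 libraries of Illumina TruSeq RNA, 3 per group. Per the submitters' processing notes, alignment used Bowtie 0.12.2 with genome mm8. How reads were counted, and whether by strand, is not given in the sources used here, so overlapping genes and near-identical copies are uncertain. Of 55401 identifiers, 55141 got a symbol from a reference list of gene names and 260 did not. Gene classes such as lincRNA came from GENCODE M21, which held 98.1% of the identifiers in the same version. No gene coordinates are given apart from the RefSeq promoters, which are of the GRCm38.p6 build.

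Genes were kept by filterByExpr of edgeR 4.0.16 (minimum count 10) in R 4.3.3, scaled by TMM and fitted over all 12 libraries with a separate mean for each group, leaving 8 residual degrees of freedom. The quasi-likelihood test was adjusted by Benjamini-Hochberg over 22107 genes. Totals ran from 6036487 to 30548253 counts per library, and intervals and floors cover counting error only. An exact permutation test of 3 against 3 libraries cannot go below 0.1 and was not used. The scripts were tested on simulated data with known changes, drawn with the same spread for every gene and library. That simulation does not show how the test performs at the uneven spread of these libraries.

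Named genes were those past the threshold, the 15 with the smallest p and the 8 of largest fold change, for each direction, among separated genes whose higher group averaged 10 CPM or more (no predicted genes), up to 4 per list by p, and 9 set genes such as Trdc and Il17a. Further list members, and every gene named with a count of 5 or fewer, were chosen after their values were seen. The members and the 40 lists (29 of pathways, 11 of markers; 663 of 666 genes matched) were chosen with earlier results of these data known. Alternatives included DESeq2 1.42.0, limma 3.58.1 voom, other scalings and filters, thinning to 6036487 counts, a replicate block, and each library left out. Protein-coding genes alone, the CD3 scale, per-library list medians and the thresholds for genes near 0 were added after seeing the data.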

Additional observations from a re-analysis of the deposited data

Results flagged for a closer look

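For 10 of the named genes the 3 libraries with AA all lay on one side of the 3 without AA in αβ cells and all on the opposite side in γδ cells. Over all 22107 genes 175 (0.792%) did so, and many of the named genes were chosen for separation in αβ cells, so the 2 shares are not comparable. The difference between the 2 AA effects did not pass edgeR's test for any of them, with an adjusted p of 0.348 for F2r and 0.442 for the others. Of these genes, 9 were lower with AA in αβ cells and higher in γδ cells. The αβ effect minus the γδ effect, on the log2 scale, was -2.32 for F2r, -5.73 for Tnfsf4, -1.07 for Srgn, -1.92 for Pdcd1, -2.54 for Cish, -2.12 for Nfkb2, -2.24 for Gpr132, -2.92 for Ptger4 and -2.37 for Gbp2. Ptger4, for the prostaglandin E2 receptor EP4, was at 225, 70.5 and 78.7 CPM with AA and at 15.5, 40.1 and 29.3 CPM without AA in γδ cells. Gpr132, a receptor of oxidized fatty acids, was at 254, 173 and 125 CPM with AA and at 109, 74.4 and 34.1 CPM without AA there. Frmd4b alone was higher with AA in αβ cells and lower in γδ cells, with a difference of 5.66. The counts include αβ and γδ replicate 3 without AA, whose Trdc went against their labels. Without them the differences ran from -5.85 to -0.94 for the 9 genes and were 6.25 for Frmd4b, with adjusted p of 0.571 for F2r and 0.898 for the others.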

How the results depend on the processing

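Against the 3 genes called, 0 were called after scaling by library size alone or by DESeq2's size factors, with a filter of 5 CPM in 3 libraries, with only the αβ libraries and without the third libraries without AA. Thinning left 1 (Tbx21), DESeq2 gave 366 (277 higher, 89 lower), no filter 264 (47 higher, 217 lower) and voom 61 (48 higher, 13 lower). Leaving out 1 library gave 0 to 129, all lower. With protein-coding genes alone, or without repeat genes, 2 were called (Tbx21 and Wdr89), and robust estimation called 4. The replicate block called 0. Same-numbered αβ libraries correlated at 0.088, 0.076 and 0.03 after removal of group means, and each library with AA correlated best with its own number. Replicates with AA correlated with each other at only 0.65 to 0.784, so such low values cannot decide whether libraries were paired.

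Genes without overlap were 840 higher and 1203 lower with the 5 CPM filter, 1149 lower with DESeq2's size factors, 1309 lower with protein-coding genes alone, and 1809 to 3912 higher and 2411 to 4579 lower with 1 library left out. Differences between αβ and γδ effects numbered 321 with DESeq2, 217 without a filter and 0 to 53 with 1 library left out. Genes at an unadjusted p under 0.05, 2264 in the report, numbered 967 with the 5 CPM filter, 1267 with protein-coding genes alone and 4420 without a filter. The cause of these shifts was not tested.

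The sign changed for 5 uncalled genes. With 1 library left out, Trdc ran from -1.66 to 2.84 and Bcl2a1a from -2.05 to 0.00, the upper values without αβ replicate 3 without AA. Cd44 was 0.01 with DESeq2 and its size factors. Gm10800 was -0.75 under the block, -1.73 with voom, and -2.55 (without αβ replicate 3 with AA) to 4.59 with 1 library left out. Rn7sk was 1.48 under the block, 0.26 after thinning, 0.26 without replicate 3 without AA of both populations and -5.45 to 0.27 with 1 library left out. The common biological coefficient of variation was 1.21.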
